A study of Mus musculus with 6 samples.

Results

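The R-spondins Rspo1 to Rspo4, their receptors Lgr4, Lgr5 and Lgr6, and the membrane E3 ligases Znrf3 and Rnf43 were followed in the ectoderm that covers the mouse forelimb bud. These 9 genes were taken by symbol from the 49452 genes of the deposited table, in which each occurred once. RNA was measured in 3 wild-type and 3 Sp8 null libraries at E10.5. Each library held the limb ectoderm of a single embryo, taken from the left and right forelimb after 20 min in 0.25% trypsin. Matings of inbred C57BL/6 mice gave the wild-type embryos. Sp8 null embryos came from crosses of mice heterozygous for the Sp8-Cre-ERT2 allele, so the groups came from different crosses, and cross and genotype cannot be told apart. The labels give C57BL6J as the background of all 6 embryos. The comparison asks which transcripts of the limb ectoderm differ when Sp8 is lost, a zinc finger protein of the Sp family that limb outgrowth needs.

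R-spondins are secreted proteins that strengthen Wnt signalling. Znrf3 and Rnf43 tag Frizzled receptors and the Lrp6 co-receptor for removal from the cell surface, which lowers the response to Wnt ligands. An R-spondin bound to an Lgr receptor and to the ligase draws the ligase away from the surface, and Frizzled then accumulates. In the limb bud Rspo2 is known as a transcript of the apical ectodermal ridge, the thickened rim that drives outgrowth, and its loss in mice causes limb defects. Znrf3, Rnf43 and Lgr5 are also known as targets of Wnt signalling in several tissues, so they take part in feedback on the pathway.

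Values are FPKM (fragments per length of transcript and per depth of the library), which allow levels to be compared between genes as well as between libraries. The members of each family are paralogs, so stretches of coding sequence were compared to see how far their reads could be mixed up. In the principal coding transcripts of GENCODE M21 (GRCm38), the longest run of identical bases within a pair of R-spondins was 10 to 14 bases, and the pairs were identical at 61.5% to 66.0% of aligned bases. The longest shared run of Rspo2 was with Rspo3. It lies in exons 4 and 5 of Rspo2 (chr15:43075922-43078144, minus strand) and in exons 3 and 4 of Rspo3 (chr10:29500092-29504632, minus strand), and is in capitals in these 90 base stretches of the 2 coding sequences, each joined over an intron.
Rspo2: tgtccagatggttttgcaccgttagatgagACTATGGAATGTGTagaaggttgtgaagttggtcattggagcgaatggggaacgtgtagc
Rspo3: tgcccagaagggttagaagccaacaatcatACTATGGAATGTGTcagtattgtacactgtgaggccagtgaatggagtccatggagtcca

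Lgr4 and Lgr6, the more abundant receptors here, shared at most 17 bases in a run, in exon 5 of each (Lgr4 chr2:109996667-109996756, plus strand; Lgr6 chr1:135027065-135027154, minus strand), shown in capitals.
Lgr4: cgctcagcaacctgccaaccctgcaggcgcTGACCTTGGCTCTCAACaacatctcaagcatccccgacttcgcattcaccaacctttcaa
Lgr6: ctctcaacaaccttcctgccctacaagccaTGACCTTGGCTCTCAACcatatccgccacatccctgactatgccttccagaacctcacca

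Znrf3 and Rnf43 shared a run of 20 bases, the longest of any pair within the families, in exon 8 of Znrf3 (chr11:5281715-5281804, minus strand) and exon 9 of Rnf43 (chr11:87731527-87731616, plus strand), again in capitals.
Znrf3: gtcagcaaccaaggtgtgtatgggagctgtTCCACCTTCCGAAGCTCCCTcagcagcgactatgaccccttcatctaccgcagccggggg
Rnf43: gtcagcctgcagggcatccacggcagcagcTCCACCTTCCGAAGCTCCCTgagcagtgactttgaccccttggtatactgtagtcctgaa

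Exons of 8 of the 9 genes overlap no exon of another gene in that annotation. Those of Rspo3 overlap Gm48159 on the other strand, and the use of strand in counting is not given in the sources used here. Reads of these 2 genes may therefore be mixed, though FPKM of Gm48159 was at most 0.279 in any library.

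All 6 libraries followed their genotype labels at Sp8 itself, whose mean FPKM was 0.787 ± 0.338 in Sp8 null against 10.9 ± 2.56 in the wild-type libraries (SD, n = 3). Depth is known only in relative terms, from the step that 1 read makes in low values, and the libraries lay between 0.843 and 1.03 of wild-type embryo 1. Between 11835 and 12245 genes per library were at 1 FPKM or more. Genes at 1 FPKM or more in at least 3 libraries were tested, and a gene is called different where limma's p-value, adjusted by Benjamini-Hochberg over all 12133 tested genes, is under 0.05. Of the tested genes 829 were called, or 6.83%, with 204 higher (1.68%) and 625 lower (5.15%) in Sp8 null. The share of calls that were higher was 24.6%, and it was 37.3% (323 higher, 543 lower) with median-of-ratios scaling of the libraries. Of the 9 genes described here 7 could be tested, and 2 were called: Rspo2 lower and Lgr4 higher. In 3 of them the groups did not overlap, Rspo1 and Lgr4 with Sp8 null above and Rspo2 with Sp8 null below. Among all tested genes that was so for 29.8%, with Sp8 null above in 8.63% and below in 21.1%. Rspo2 passed the filter through the wild-type libraries alone.

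**Figure D1:**
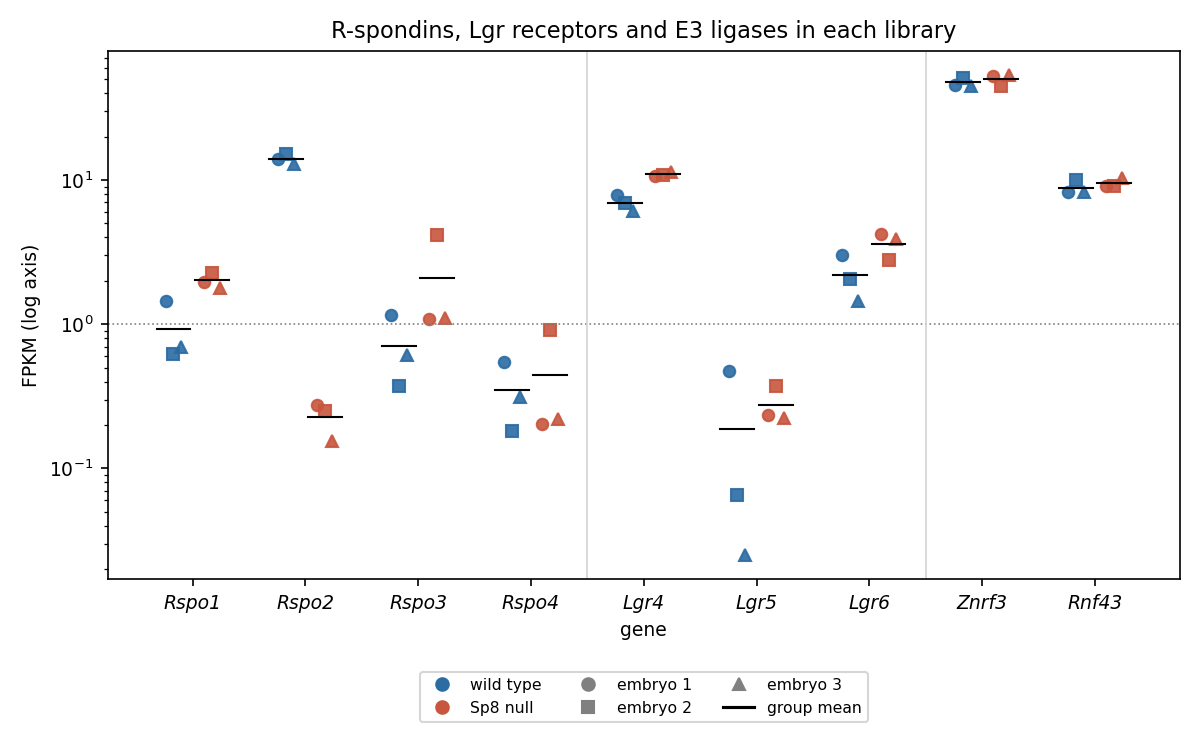
FPKM of the 9 genes (log axis) in each library, with wild type in blue, Sp8 null in red, a marker shape for each embryo number and a bar at the group mean. Rspo2 lies between 12.8 and 15.1 FPKM in wild type and between 0.154 and 0.276 FPKM in Sp8 null, while Znrf3 and Rnf43 overlap between the groups.

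Among the ligands, Rspo2 (ENSMUSG00000051920; chromosome 15, 43020794 to 43170826, minus strand, protein-coding) was nearly lost. It was at 14.0, 15.1 and 12.8 FPKM in wild-type embryos 1, 2 and 3, and at 0.276, 0.252 and 0.154 FPKM in Sp8 null embryos 1, 2 and 3. The groups were far apart, and each was tight. Mean FPKM was 14.0 ± 1.11 in wild type and 0.227 ± 0.0645 in Sp8 null (SD, n = 3), a ratio of 61.5. On the log2(FPKM + 1) scale, which understates changes of genes with low values, the difference was -3.61 (SE 0.10, 95% interval -3.84 to -3.37; limma adjusted p = 5.68e-06), the fifth largest fall (rank 5) of the 12133 tested genes. With a pseudocount of 0.1 in place of 1 it was -5.44. In wild type Rspo2 was at percentile 67.9 of the tested genes by mean FPKM, and in Sp8 null at percentile 0.173. In the authors' deposited table, whose means are on a scale of normalized read counts, its mean was 1728 in wild type and 31.8 in Sp8 null, with a signed fold change of -36.16.

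Most of the tested markers of the apical ridge moved with Rspo2. Of 11 tested ridge markers 9 were lower in Sp8 null and none was higher, against 5.15% and 1.68% of all tested genes. The median log2 difference was -1.95, against -0.06 over all tested genes. The 9 were the growth factor genes Fgf8 (-4.38), Fgf4 (-3.43), Fgf9 (-2.64) and Bmp4 (-1.72), the transcription factor genes Bhlha9 (-3.49), Dlx2 (-1.95), Msx2 (-1.72) and Dlx5 (-1.05), and Cd44 (-3.66), which encodes a cell surface glycoprotein. Of these, Fgf4 and Fgf9 passed the filter on low values through the wild-type libraries alone. Bmp2 and Dlx6 were tested and not called, with log2 differences of -0.03 and -0.94 (limma adjusted p = 0.939 and 0.061). Without Sp8 null embryo 2 and wild-type embryo 1, a choice made after seeing the data, 8 of the 11 were lower. The summed FPKM of the list was 61.5 to 79.8 in Sp8 null libraries and 318 to 330 in wild type, and none of the 13 markers on the list was at 0 in any library. The ridge list was drawn up with earlier results of these samples known, so its direction is not independent evidence. Of 12 general limb ectoderm markers 1 was higher (Tfap2a, 0.52) and 1 was lower (Epcam, -0.53). Neither was called without wild-type embryo 1, without wild-type embryo 3, or without both Sp8 null embryo 2 and wild-type embryo 1. The same held with no filter on low values, with embryo number as a replicate block, and with only the libraries whose name starts with 5. Epcam was also not called with upper-quartile scaling or with a covariate for the number that opens each sample name. Nor was it called without Sp8 null embryo 1, without Sp8 null embryo 2 or without wild-type embryo 2. The summed FPKM was 538 to 652 in Sp8 null and 621 to 666 in wild type. In bulk ectoderm, fewer cells of a type and less RNA per cell cannot be told apart, so the fall of Rspo2 is not a measure of its level within ridge cells.

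The 3 tested genes whose pattern over the 6 libraries was nearest to that of Rspo2 were Fam46a, Vwde and Fgf4. Likeness was measured as the root mean square difference of log2(FPKM + 1), each gene set relative to its own wild-type mean. It was 0.147 for Fam46a, a member of a family of poly(A) polymerases, 0.152 for Vwde, a protein with von Willebrand factor D and EGF domains, and 0.213 for Fgf4, a growth factor of the apical ridge. Fam46a was at 13.0, 14.4 and 14.8 FPKM in wild type and at 0.0948, 0.136 and 0.109 FPKM in Sp8 null. Vwde was at 12.002, 10.6 and 11.6 FPKM in wild type and at 0.164, 0.0597 and 0.131 FPKM in Sp8 null. Fgf4 was at 8.90, 9.73 and 12.1 FPKM in wild type and at 0.0589, 0.0327 and 0.0162 FPKM in Sp8 null. The measure chose these genes for this pattern, so their values are a description, and like Rspo2 all 3 passed the filter on low values through the wild-type libraries alone.

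None of the other R-spondins was called. Rspo1 (ENSMUSG00000028871; chromosome 4, 124986430 to 125009099, plus strand) was at 1.44, 0.625 and 0.693 FPKM in wild-type embryos 1, 2 and 3, and at 1.97, 2.27 and 1.80 FPKM in Sp8 null embryos 1, 2 and 3. Every Sp8 null library was above every wild-type library, and wild-type embryo 1 was the nearest to the other group. The mean was 0.921 ± 0.455 FPKM in wild type and 2.01 ± 0.239 FPKM in Sp8 null (SD, n = 3), a ratio of 2.18. The log2 difference of 0.67 (SE 0.18, 95% interval 0.26 to 1.08) did not pass the threshold over all genes (limma adjusted p = 0.0652). Without wild-type embryo 1 it was 0.86 and passed (limma adjusted p = 0.0221), while across the 16 alternatives that tested Rspo1 the adjusted p ranged from 0.0221 to 0.2. In the authors' deposited table Rspo1 had a signed fold change of 1.79 with a p-value of 4.7e-05, in a test that the file does not describe.

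Rspo3 (ENSMUSG00000019880; chromosome 10, 29452416 to 29535867, minus strand) differed within Sp8 null more than between the groups. Its FPKM was 1.15, 0.372 and 0.612 in wild-type embryos 1, 2 and 3, and 1.08, 4.14 and 1.10 in Sp8 null embryos 1, 2 and 3. Sp8 null embryo 2 stood far above the other libraries, and the groups overlapped. The log2 difference was 0.74 (SE 0.36, 95% interval -0.10 to 1.59; limma adjusted p = 0.261), and it dropped to 0.31 without Sp8 null embryo 2 (limma adjusted p = 0.481). The authors' deposited table gave Rspo3 a signed fold change of 1.35, with a p-value of 0.047455 in the undescribed test.

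Rspo4 (ENSMUSG00000032852; chromosome 2, 151842927 to 151874668, plus strand) did not reach 1 FPKM in any library and was not tested with the other genes. It was at 0.549, 0.181 and 0.313 FPKM in wild-type embryos 1, 2 and 3, and at 0.205, 0.906 and 0.222 FPKM in Sp8 null embryos 1, 2 and 3. The highest value was again that of Sp8 null embryo 2, and the groups overlapped. On the log2(FPKM + 1) scale the means differed by 0.07 (exact two-sided permutation test, p = 0.8), where the smallest p that 3 libraries against 3 can give is 0.1. Without Sp8 null embryo 2 the difference was -0.14.

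Summed over the family, R-spondin transcripts were fewer in Sp8 null and of another makeup. The summed FPKM was 17.2, 16.2 and 14.5 in wild-type embryos 1, 2 and 3, and 3.53, 7.56 and 3.27 in Sp8 null embryos 1, 2 and 3. Rspo2 supplied 81.7%, 92.7% and 88.8% of that sum in the wild-type libraries and 7.81%, 3.33% and 4.72% in the Sp8 null libraries. In Sp8 null embryos 1 and 3 Rspo1 made up the largest share, with 55.8% and 54.9%, and in embryo 2 Rspo3 did, with 54.7%. Without Rspo2 the sum was 3.14, 1.18 and 1.62 FPKM in wild type and 3.25, 7.31 and 3.11 FPKM in Sp8 null. The remaining R-spondins summed to 4.56 ± 2.39 FPKM in Sp8 null (SD, n = 3), below the 14.0 FPKM of Rspo2 in wild type, and the ranges of their sum overlapped between the genotypes (exact two-sided permutation test, p = 0.2). The whole sum and the share of Rspo2 separated the groups without overlap, each at the smallest p this design allows (exact permutation test, p = 0.1). Rspo2 supplied most of the sum in wild type, so both largely restate its fall. Among all tested genes 29.8% showed no overlap between the groups.

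**Figure D2:**
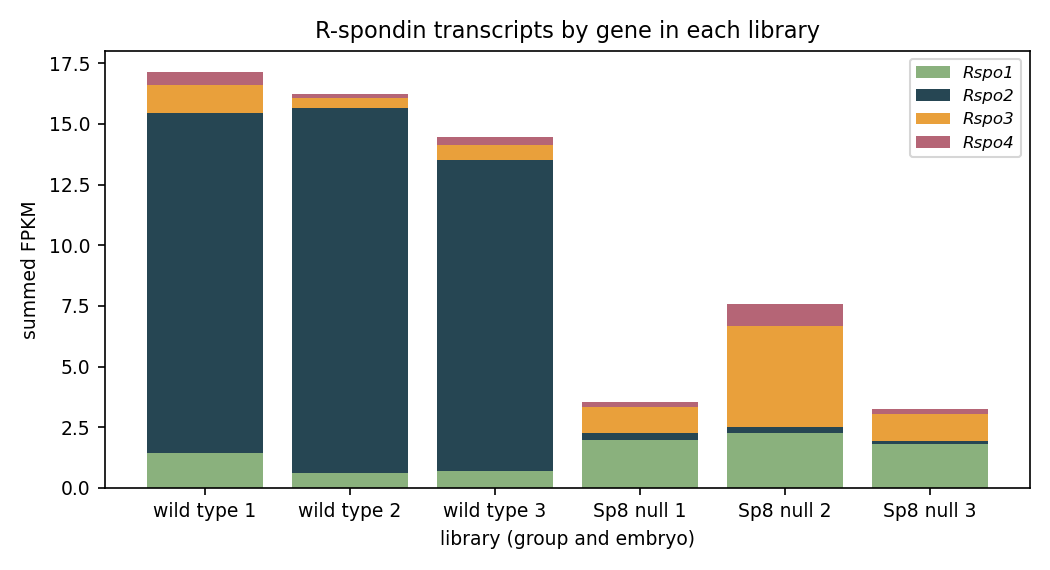
Summed FPKM of the 4 R-spondins in each library, with a colour for each gene and bars that start at 0. The wild-type bars reach 14.5 to 17.2 FPKM and are mostly Rspo2, and the Sp8 null bars reach 3.27 to 7.56 FPKM and are mostly Rspo1 and Rspo3.

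Of the receptors, Lgr4 was called higher in Sp8 null, Lgr6 did not pass the threshold and Lgr5 was too low to test. Lgr4 (ENSMUSG00000050199; chromosome 2, 109917647 to 110014257, plus strand), the most widely expressed of the receptors, was at 7.85, 6.91 and 6.13 FPKM in wild-type embryos 1, 2 and 3, and at 10.6, 10.9 and 11.3 FPKM in Sp8 null embryos 1, 2 and 3. Every Sp8 null library was above every wild-type library. Lgr4 rose from 6.96 ± 0.862 to 10.9 ± 0.346 FPKM (SD, n = 3), a ratio of 1.57, with a log2 difference of 0.59 (SE 0.10, 95% interval 0.36 to 0.82; limma adjusted p = 0.0157). It was higher in all 17 alternatives and called in 13 of them. Of the 4 without a call, some left out 1 library: Sp8 null embryo 2 (limma adjusted p = 0.0507) or wild-type embryo 2 (0.0668). The others had no filter on low values (0.0557) or embryo number as a replicate block (0.0647). The authors' deposited table gave a signed fold change of 1.63.

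Lgr6 (ENSMUSG00000042793; chromosome 1, 134983301 to 135105276, minus strand), a receptor best known from the epidermis and hair follicle, was at 3.03, 2.05 and 1.45 FPKM in wild-type embryos 1, 2 and 3, and at 4.22, 2.78 and 3.87 FPKM in Sp8 null embryos 1, 2 and 3. The groups overlapped, since Sp8 null embryo 2 was below wild-type embryo 1. The log2 difference was 0.56 (SE 0.20, 95% interval 0.08 to 1.03; limma adjusted p = 0.151). Without both of those libraries, an alternative chosen after seeing the data, it was 0.88 and passed (limma adjusted p = 0.0479). Its 16 alternatives gave adjusted p-values from 0.0479 to 0.344, all with a higher mean in Sp8 null. The authors' deposited table gave Lgr6 a signed fold change of 1.49, with a p-value of 0.008183 in the undescribed test.

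Lgr5 (ENSMUSG00000020140; chromosome 10, 115450311 to 115587780, minus strand), a marker of stem cells in the gut and other epithelia, stayed under 0.5 FPKM in every library and was not tested with the other genes. It was at 0.476, 0.0652 and 0.025 FPKM in wild-type embryos 1, 2 and 3, and at 0.233, 0.370 and 0.223 FPKM in Sp8 null embryos 1, 2 and 3. Wild-type embryo 1 held the highest value and the other wild-type libraries the lowest. The means differed by 0.12 on the log2(FPKM + 1) scale (exact two-sided permutation test, p = 0.6). In the authors' deposited table its means were 23.34 in wild type and 57.23 in Sp8 null, with a p-value of 0.151703.

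Together the receptors summed to 11.4, 9.02 and 7.61 FPKM in wild-type embryos 1, 2 and 3, and to 15.03, 14.0 and 15.4 FPKM in Sp8 null embryos 1, 2 and 3. These sums did not overlap (exact two-sided permutation test, p = 0.1, the smallest this design allows). Lgr4 supplied most of each sum, so the separation largely restates its rise. The makeup of the sum overlapped between the groups, since Lgr4 supplied 75.4% ± 5.82 in wild type and 73.8% ± 3.59 in Sp8 null, and Lgr6 22.8% ± 3.81 and 24.3% ± 4.18 (SD, n = 3).

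The promoter of Lgr4, the receptor that passed the test, and that of Lgr6 are shown as 300 base windows from RefSeq (GRCm38.p6), from 250 bases before the start site to 50 after it. The Lgr4 window is chr2:109917397-109917696 on the plus strand and that of Lgr6 is chr1:135105227-135105526 on the minus strand. Capitals mark the GC box GGGCGG on either strand, a motif of Sp family proteins.
Lgr4: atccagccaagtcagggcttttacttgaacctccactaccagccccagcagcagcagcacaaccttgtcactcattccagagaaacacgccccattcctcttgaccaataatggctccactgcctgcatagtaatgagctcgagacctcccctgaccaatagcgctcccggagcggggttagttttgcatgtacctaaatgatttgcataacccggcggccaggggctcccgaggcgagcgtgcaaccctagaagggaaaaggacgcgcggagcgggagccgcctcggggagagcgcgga
Lgr6: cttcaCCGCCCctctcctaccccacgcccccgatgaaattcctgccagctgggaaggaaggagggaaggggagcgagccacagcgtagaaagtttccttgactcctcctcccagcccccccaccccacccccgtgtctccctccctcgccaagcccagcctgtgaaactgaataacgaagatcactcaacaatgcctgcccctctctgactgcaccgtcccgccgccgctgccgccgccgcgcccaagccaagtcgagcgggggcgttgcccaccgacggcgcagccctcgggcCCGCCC

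The Lgr4 window holds no GC box, and that of Lgr6 holds 2, both on the opposite strand, with their first bases at -245 and 45 relative to the start site. A GC box is in 35.7% of the 32851 promoter windows of the table. The TCF/LEF core (CTTTGAT or CTTTGAA, 8.65% of windows) and the homeodomain core TAATTA (5.29%) were searched on both strands too. Neither was in the windows of Lgr4, Lgr6, Rspo1, Rspo4 or Rnf43, the 5 of the 9 genes with an entry. A GC box was in those of Lgr6 and Rspo4. Rspo2, Rspo3, Lgr5 and Znrf3 had no entry.

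Neither ligase passed the test. Znrf3 (ENSMUSG00000041961; chromosome 11, 5276324 to 5444847, minus strand) was the most abundant of the 9 genes in every library, at 45.9, 51.3 and 45.2 FPKM in wild-type embryos 1, 2 and 3, and at 52.5, 45.1 and 53.6 FPKM in Sp8 null embryos 1, 2 and 3. The groups overlapped, with 1 Sp8 null library below all wild-type libraries. The mean was 47.5 ± 3.38 FPKM in wild type and 50.4 ± 4.65 FPKM in Sp8 null (SD, n = 3), and the log2 difference was 0.08 (95% interval -0.13 to 0.29; limma adjusted p = 0.623). Rnf43 (ENSMUSG00000034177; chromosome 11, 87662722 to 87735539, plus strand) was at 8.29, 9.99 and 8.23 FPKM in wild-type embryos 1, 2 and 3, and at 9.04, 9.07 and 10.4 FPKM in Sp8 null embryos 1, 2 and 3. Its log2 difference was 0.10 (95% interval -0.14 to 0.33; limma adjusted p = 0.62). Neither interval reaches a log2 difference of 1. On the log2(FPKM + 1) scale a 2-fold change gives slightly less than that at these levels. Smaller changes in either direction lie within both intervals.

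Znrf3 exceeded Rnf43 by a similar factor in all libraries, 5.53, 5.14 and 5.49 in wild-type embryos 1, 2 and 3 and 5.81, 4.97 and 5.17 in Sp8 null embryos 1, 2 and 3. The summed ligases relative to the summed receptors gave FPKM ratios of 4.77, 6.80 and 7.02 in wild type and 4.09, 3.86 and 4.16 in Sp8 null. The ratio was lower in every Sp8 null library than in any wild-type library (exact two-sided permutation test, p = 0.1, the smallest this design allows). The summed ligases overlapped between the groups (exact two-sided permutation test, p = 0.3). The ratio therefore largely restates the rise of the receptors, mostly Lgr4.

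**Figure D3:**
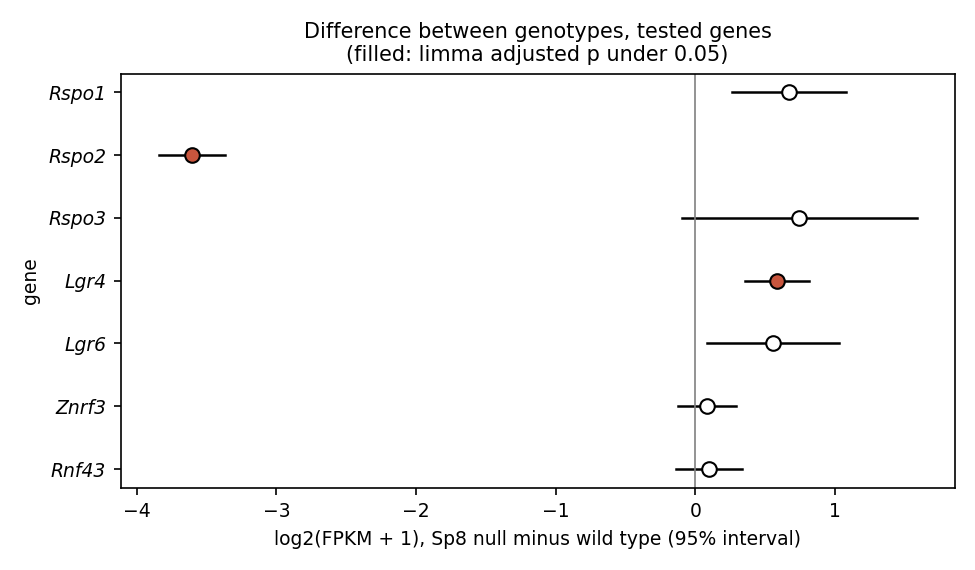
Difference between Sp8 null and wild type on the log2(FPKM + 1) scale for the 7 tested genes, with lines for the 95% interval and filled points for a limma adjusted p under 0.05. Rspo2 is at -3.61 and Lgr4 at 0.59, and the intervals of Znrf3 and Rnf43 lie on both sides of 0.

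Ordered by mean FPKM in wild type, the genes ran Znrf3, Rspo2, Rnf43, Lgr4, Lgr6, Rspo1, Rspo3, Rspo4 and Lgr5. The ranges of neighbours in that order did not overlap down to Lgr6 and Rspo1, and those of Rspo1, Rspo3, Rspo4 and Lgr5 did. In Sp8 null the order was Znrf3, Lgr4, Rnf43, Lgr6, Rspo3, Rspo1, Rspo4, Lgr5 and Rspo2. There the ranges of Lgr6, Rspo3 and Rspo1 overlapped from neighbour to neighbour, as did those of Rspo4, Lgr5 and Rspo2.

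Genes of the limb mesenchyme, the tissue beneath the ectoderm, also varied between libraries. The summed FPKM of the 15 mesenchymal markers was 178, 130 and 134 in wild-type embryos 1, 2 and 3, and 148, 206 and 134 in Sp8 null embryos 1, 2 and 3. Sp8 null embryo 2 had the highest sum and the highest Rspo3 and Rspo4, and wild-type embryo 1 was next in each. Lgr5 was highest in the same pair of libraries, in the other order. Rspo1 was highest in Sp8 null embryo 2, and embryo 1 held its highest wild-type value. Meis1 and Meis2 weighed heavily in the sum, at means of 41.7 and 57.7 FPKM in wild type and 35.9 and 67.7 FPKM in Sp8 null. Meis2 was the largest of the markers in every library, at 52.0 to 74.5 FPKM. The sum can therefore understate how far less abundant markers differed between libraries. Single markers did not share 1 order: 7 of the 15 were highest in Sp8 null embryo 2, 7 in wild-type embryo 1 and 1 in Sp8 null embryo 1. As examples chosen after their values were seen, the homeobox gene Prrx1 was at 53.3 FPKM in Sp8 null embryo 2 and at 3.92 to 16.5 FPKM in the other libraries. Pdgfra, a growth factor receptor gene, was at 19.8 to 23.8 FPKM in wild type and at 6.37, 19.5 and 6.01 FPKM in Sp8 null embryos 1, 2 and 3, and Meis1, another homeobox gene, was lowest in Sp8 null embryo 2 (29.2 FPKM). Of the 15 markers 11 were tested and none was called in limma. An unadjusted limma p under 0.05 was found for 2 of them, against 2914 of all 12133 tested genes. These 2 were Twist2 (log2 difference 1.22) and Pdgfra (-1.15). For Twist2, as for Rspo1, every Sp8 null library was above every wild-type library, and for Pdgfra every one was below. None of the 15 was at 0 in any library. The part of mesenchymal RNA in the values of Rspo1, Rspo3, Rspo4 and Lgr5 was not tested. Endothelial markers summed to 2.21 to 4.58 FPKM and macrophage markers to 0 to 1.27 FPKM over the 6 libraries. Erythroid markers summed to 423 FPKM in wild-type embryo 1 and to at most 162 FPKM in the other libraries. Without Sp8 null embryo 2 and wild-type embryo 1, 3 of the 9 genes were called: Rspo2 (log2 difference -3.62), Lgr4 (0.67) and Lgr6 (0.88).

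**Figure D4:**
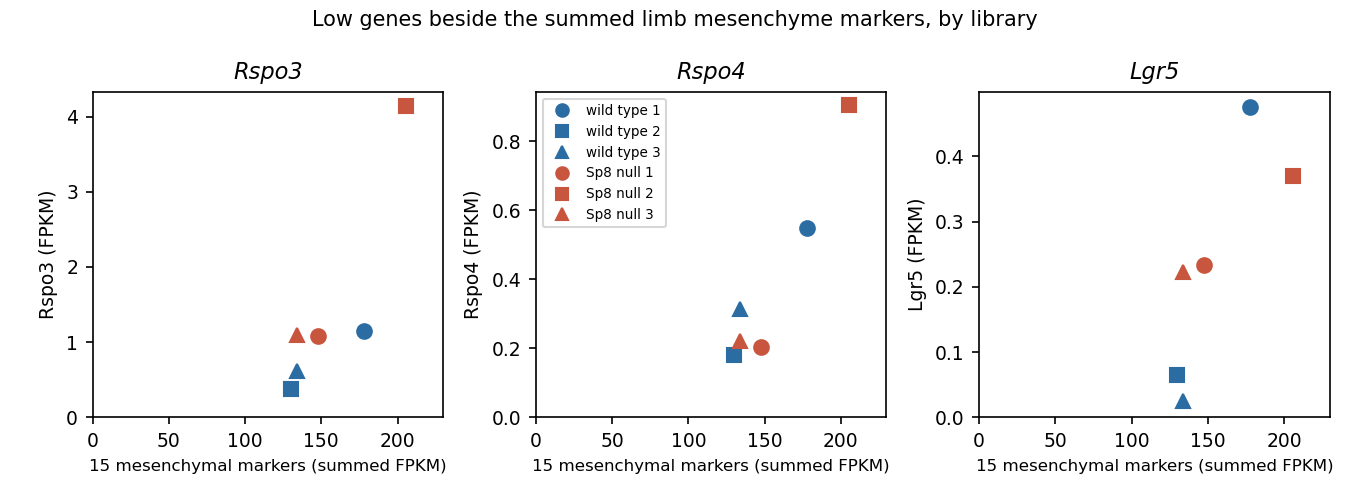
FPKM of Rspo3, Rspo4 and Lgr5 (vertical axes) beside the summed FPKM of the 15 mesenchymal markers (horizontal axis) in each library, with wild type in blue, Sp8 null in red and a marker shape for each embryo. Sp8 null embryo 2 is at the highest sum (206 FPKM) with the highest Rspo3 (4.14 FPKM) and Rspo4 (0.906 FPKM). Meis2, at 52.0 to 74.5 FPKM, is the largest part of each sum.

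Other parts of the Wnt pathway were counted from lists, beside a median log2 difference of -0.06 over all tested genes, of which 5.15% were called lower and 1.68% higher. Of 12 tested Frizzled receptors and co-receptors, the proteins that Znrf3 and Rnf43 act on and their partners, 1 was lower and 1 was higher (median -0.07). The Frizzled gene Fzd1 was at 46.2, 55.7 and 51.8 FPKM in wild-type embryos 1, 2 and 3, and at 11.1, 11.1 and 13.1 FPKM in Sp8 null embryos 1, 2 and 3, a log2 difference of -2.03 (limma adjusted p = 5.22e-05). Ror1, a receptor tyrosine kinase that binds Wnt ligands, was higher by 0.70 (limma adjusted p = 0.0341), but was called in only 7 of 17 alternatives. Lrp5 and Lrp6, listed here because they are the co-receptors, had log2 differences of -0.24 and -0.09, with limma adjusted p-values of 0.286 and 0.456.

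Among 12 tested Wnt ligands and secretion genes 4 were lower and 1 was higher (median -0.06), against 5.15% and 1.68% of all tested genes. Without Sp8 null embryo 2 and wild-type embryo 1 it was 2 lower and 1 higher. The log2 differences were -2.20 for Wnt5a and -0.98 for Wnt7a, -0.52 for Wnt3, the ligand of the canonical pathway in limb ectoderm, and -0.48 for Wls, the carrier that Wnt secretion needs. Wnt10b, another canonical ligand, rose by 1.38, from 4.23 ± 0.104 to 12.7 ± 1.89 FPKM (SD, n = 3). Wnt5a and Wnt10b were called in all 17 alternatives, Wls in 14, Wnt7a in 11 and Wnt3 in 7. Without any 1 of 5 libraries, all but Sp8 null embryo 3, the call of Wnt3 was lost. Of 17 tested genes of the cytoplasmic pathway 1 was called, Dvl3 (0.33, limma adjusted p = 0.0298), which acts downstream of Frizzled. That call was lost when any 1 library was left out (limma adjusted p from 0.0636 to 0.109).

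Among 13 tested TCF/LEF factors and Wnt feedback targets, a list without Znrf3, Rnf43 and Lgr5, 5 were lower and none was higher (median -0.06), against 5.15% and 1.68% of all tested genes. Another gene had an unadjusted limma p under 0.05 in the other direction: Nkd2, a feedback inhibitor, with a log2 difference of 1.30 (limma adjusted p = 0.16). It was at 5.31, 1.18 and 2.96 FPKM in wild-type embryos 1, 2 and 3, and at 5.79, 17.5 and 5.52 FPKM in Sp8 null embryos 1, 2 and 3. The 5 lower genes were Tcf7 (-1.67), a transcription factor of the pathway, Dkk1 (-0.97) and Apcdd1 (-0.67), which inhibit it at the cell surface, and Ccnd1 (-0.70) and Myc (-0.85), which act in growth and division. Tcf7 was called in all 17 alternatives, Apcdd1 in 15 of 17 and Dkk1 in 13 of 16. Dkk1 passed the filter on low values through the wild-type libraries alone. Ccnd1 was called in 10 of 17 and Myc in 8 of 16, and 1 library left out ended each of these calls in several cases. Axin2, the most used readout of the pathway, had a log2 difference of 0.19 (limma adjusted p = 0.358). Without Sp8 null embryo 2 and wild-type embryo 1, 2 of the 13 were lower. None of 8 tested heparan sulfate proteoglycans, which can also bind R-spondins, was called in limma, and none had an unadjusted p under 0.05. The same held for the 7 tested ligases related in structure to Znrf3 and Rnf43, whose median was -0.03. Of all 12133 tested genes, 829 were called and 2914 had an unadjusted limma p under 0.05.

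**Figure D5:**
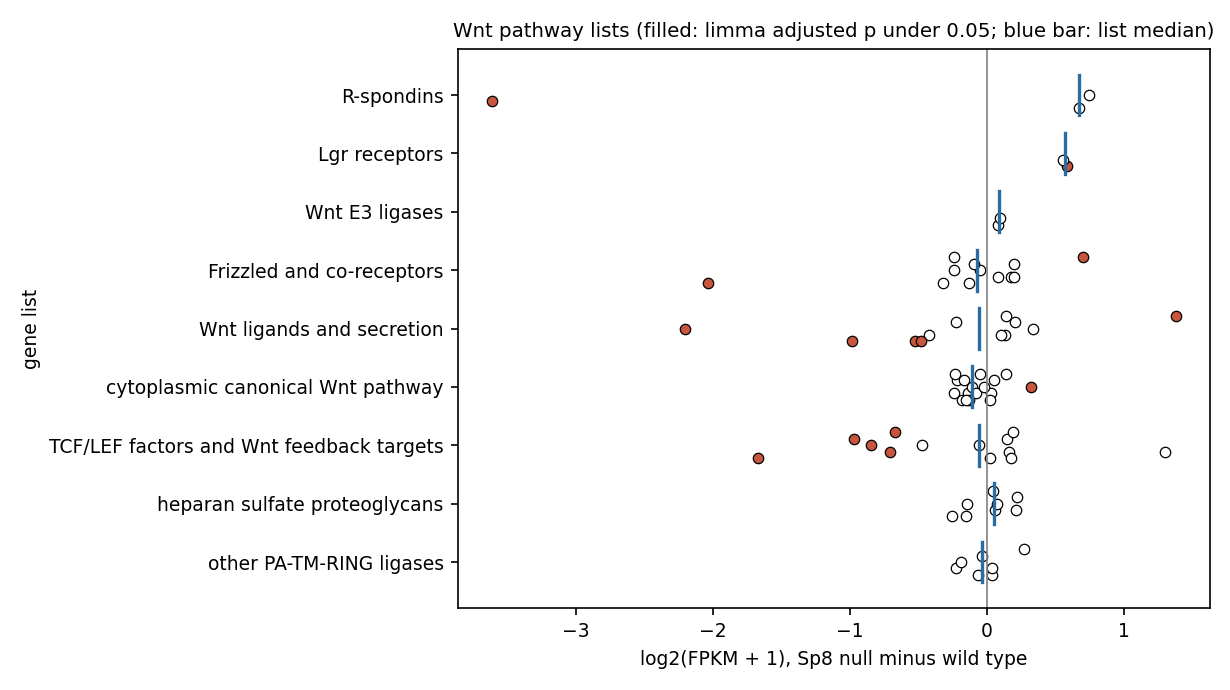
Difference between Sp8 null and wild type on the log2(FPKM + 1) scale for each tested gene of the 9 lists, with filled points for a limma adjusted p under 0.05 and a blue bar at the list median. Rspo2 is the lowest point at -3.61, followed by Wnt5a (-2.20) and Fzd1 (-2.03), and no filled point is in the list of proteoglycans, that of related ligases or that of Znrf3 and Rnf43.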

How the data were processed

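Transcripts of 6 libraries were given in 1 table. Per the file headers, the authors deposited FPKM per gene and library for gene models of Ensembl build 87, and, for each gene, a group mean (a signal on a scale of normalized read counts, headed control and sample, taken here for wild type and Sp8 null). A signed fold change, treated as a score, and a p-value were deposited too, and the test behind them is not given. Per the submitters' processing notes, FastQC, TopHat2, SAMtools, Cufflinks and DESeq2 and the build GRCm38 were used, with no role stated. Which fragments were counted and how libraries were scaled bear on every FPKM.

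From FPKM, log2(FPKM + 1) of genes at 1 FPKM or more in at least 3 libraries entered limma 3.58.1 (R 4.3.3), with genotype as the only term and a mean-variance trend. P-values are two-sided, adjusted by Benjamini-Hochberg over all tested genes. Samples were grouped by title. Each library is a separate embryo. FPKM gives no read totals, so no counting interval is given.

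The 9 genes and all lists were chosen with earlier results of these data known. Named genes are the 9, Sp8, the 3 genes nearest in pattern to a called member of at least 2-fold change (log2 of 1), and called members of the other pathway and marker lists. Lrp5, Lrp6, Axin2, Nkd2, Prrx1, Pdgfra, Meis1, Meis2, Twist2, Bmp2 and Dlx6 fall outside that rule and were chosen after their values were seen. Fits on fewer libraries kept the 12133 tested genes. Sensitivity to scaling, filter, pseudocount, covariates and single libraries is given at the end.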

Additional observations from a re-analysis of the deposited data

How the results depend on the processing

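Over all genes 829 were called. Other settings gave 342 without a filter for low FPKM, 328 with embryo number as a replicate block, 545 with a covariate for the number that opens each sample name, 251 with only the libraries whose name starts with 5, and 325 without Sp8 null embryo 2 and wild-type embryo 1 (chosen after seeing the data). Leaving out 1 library gave 316 to 642, fits with fewer samples. Of the 9 genes, 2 were called. The count was 1 without that filter and 1 with the replicate block, in both cases because Lgr4 was not called, and 1 to 3 with 1 library left out. Under the replicate block Lgr4 had a limma adjusted p of 0.0647. Embryo numbers gave no pairing, as same-numbered libraries deviated from their group means with correlations of -0.16, -0.14 and -0.07 across genes. Over the 116 values of the 7 tested genes under the alternatives, none changed direction, 110 kept their side of the threshold, 4 fell short of it (all Lgr4) and 2 passed it newly. Rspo2 was called in all 17 alternatives, with log2 differences from -5.44 to -3.56. The leading number of the name, whose meaning is not given, is 4 in 1 library of each genotype. Within the libraries numbered 5 Rspo2 was at -3.63 and Lgr4 at 0.69. The cause was not tested for any of these. Rspo4 and Lgr5 lie under 1 FPKM, where few reads limit what can be detected.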
